A study of Mus musculus with 12 samples.

Results

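The arrays described here are the 8 microarrays of mouse myocardium from the NC and DM groups, of 12 arrays in the series, sorted by the signal of Myl7, the regulatory myosin light chain of atrial muscle. The sides were chosen by this measured Myl7 level: arrays with a log2 signal above 7 form the high-Myl7 side, and arrays below 5 form the low-Myl7 side. Myl7 was 10.08 on NC-1, 7.90 on NC-3, 8.86 on DM-1, 9.68 on DM-2 and 8.10 on DM-4, which puts 5 arrays on the high side. It was 4.28 on NC-2, 3.72 on NC-4 and 3.97 on DM-3, which puts 3 arrays on the low side. The arrays nearest to the limits were NC-3 at 7.90 and NC-2 at 4.28, and no array lay between the limits. Myl7 chose the sides, so its levels are a description and Myl7 was left out of every comparison.

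NC mice received vehicle by intraperitoneal injection on 5 days. DM mice received streptozotocin, a toxin of pancreatic beta cells, in the same way on 5 days, and were kept when fasting blood glucose reached at least 16.7 mM. The AngIV mice, 4 arrays that the sorting did not use, had the same diabetes and an infusion of angiotensin IV at 2.88 mg/kg/day from the end of week 8 to the end of week 24. Samples of all groups carry the label 6 months. The labels give the tissue as myocardium and name no heart chamber, strain or sex, so the presence of atrial tissue is read from the genes alone, and the sides are called high-Myl7 and low-Myl7. Each group has 4 numbered samples, and p-values measure only the spread between these samples, which may be technical.

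Atrial and ventricular muscle build their contractile apparatus from different copies of several proteins. Atrial myocytes use the light chains Myl7 and Myl4, restrain the calcium pump of the sarcoplasmic reticulum with sarcolipin (Sln) and secrete the natriuretic peptide made from Nppa. Ventricular myocytes use Myl2 and Myl3 as light chains. The atria border on the valves and the great vessels, and their walls also hold fibroblasts and smooth muscle. In whole tissue, fewer cells of a type and less RNA per cell cannot be told apart.

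Measures of array quality overlapped between the 2 sides. The ability of the array to separate positive from negative controls was 0.913 to 0.930 on the high side and 0.918 to 0.928 on the low side, where 1 is complete separation, and the median log2 signal was 5.36 to 5.40 on both. A signal is called below background here when it lies under the 95th percentile of the negative controls, which was 5.39 to 5.60 over the 12 arrays. Both sides carried genes of other tissues unevenly. Genes of the liver, a list of 14 chosen after their values were seen, were all highest on NC-3, a high-Myl7 array. The liver list had a mean log2 signal of 7.90 on NC-3 and 3.69 on NC-2, the lowest array, and Alb, which encodes serum albumin, was 11.02 on NC-3, 3.53 on NC-2 and 9.23 on NC-4. NC-1, the array with the highest Myl7, had the highest signal of all 12 arrays for 9 smooth muscle and cartilage genes singled out after their values were seen. Cnn1, the smooth muscle calponin, was 6.67 on NC-1 and at most 4.60 elsewhere. The contractile genes Acta2 and Tagln were 9.99 and 8.62 on NC-1. On the low side, the liver list mean was 5.73 on NC-4 and 5.24 on DM-3, beside 4.79 to 4.90 on the high arrays other than NC-3. Alb was 8.41 on DM-3 and 7.34 to 7.67 on those high arrays. Values without NC-1 or without NC-3 are given for some differences only, and differences shown without them may have moved too. The Sln difference, for example, went from 2.95 to 2.44 without NC-1, and that of Nppa from 2.60 to 3.32 without NC-3.

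Among the atrial genes, Myl4 and Sln separated the sides by the largest differences. Myl4, the essential myosin light chain of the atria, had log2 signals of 9.99, 8.35, 8.95, 9.24 and 7.88 on NC-1, NC-3, DM-1, DM-2 and DM-4. It was 6.02, 5.80 and 5.66 on NC-2, NC-4 and DM-3. The sides did not overlap, and the 3 low arrays were just above the background of their own array. The difference was 3.16 ± 0.37 on the log2 scale (SE, with the group in the fit; 5 against 3 arrays), or 8.95-fold, with a 95% confidence interval of 2.36 to 3.96 and a limma adjusted p of 0.0356. Sln was 9.35, 7.32, 7.65, 8.83 and 7.28 on the 5 high arrays in the same order and 5.34, 5.16 and 5.16 on the 3 low arrays. Its difference was 2.95 ± 0.43, with a limma adjusted p of 0.121, and the low side lay below background, so no fold is given. Because the arrays were sorted on a measured atrial gene, these p-values rank how closely a gene follows the sorting and test no experimental factor.

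Myl4 was the only gene of 13652 called higher on the high-Myl7 arrays at a limma adjusted p under 0.05 (0.00732% of the genes tested), and 0 genes were called lower (0%). An unadjusted p under 0.05 was reached by 268 genes with a positive difference (1.96%) and 249 with a negative one (1.82%). Without NC-3 the fit called 4 genes higher (0.0293%), namely Myl4, Sln, Mybphl and Cilp. Without NC-1 it called 0 (0%), and Myl4 then had a difference of 2.75 with a limma adjusted p of 0.0739. It also called 0 without NC-2, DM-1, DM-2 or DM-3, where the Myl4 difference was 3.19, 3.12, 3.06 and 3.26 and its limma adjusted p was 0.219, 0.202, 0.0909 and 0.213. Without NC-4 it called 1 gene, which was not Myl4 (3.09, limma adjusted p = 0.108). Of 19 other settings, 8 left Myl4 above the threshold, 6 of them by leaving out 1 of these arrays, and over all 19 its difference stayed between 2.75 and 3.53. With a trend and robust prior its limma adjusted p was 0.938, and with quantile normalization anew it was 0.0731.

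Of the 22 atrial genes listed beside Myl7, 21 had a named probe set and 19 were bright enough to be tested. Of the 19, 1 was called higher and 0 lower, 7 reached an unadjusted p under 0.05 with a positive difference and 0 with a negative one, and 7 were higher with no overlap between the sides within NC and within DM, where 2.94% of all tested genes were. The list's median difference was 0.23, beside -0.01 over all tested genes. Mybphl, a myosin-binding protein of the atria, was 6.29, 3.86, 4.50, 5.07 and 3.99 on NC-1, NC-3, DM-1, DM-2 and DM-4 and 3.21, 2.96 and 2.35 on NC-2, NC-4 and DM-3. The sides did not overlap, but only NC-1 was above background, and all 3 low arrays lay under the filter's limit of 3.40 for the mean signal, so Mybphl passed the filter only through the high side, the 1 atrial gene that did. Its difference was 2.07 ± 0.44, with a limma adjusted p of 0.617. Without NC-3 it was 2.66 (limma adjusted p = 0.0141), and without NC-1 it was 1.52 (limma adjusted p = 0.952). Dkk3, a secreted member of the Dickkopf family, was 7.05, 4.96, 5.71, 6.30 and 4.58 on the high arrays in that order and 3.95, 3.82 and 3.94 on the low arrays. Only 3 of the 8 arrays, NC-1, DM-1 and DM-2, were above background for Dkk3. Its difference was 1.89 ± 0.45, or 1.35 without NC-1.

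Nppa, which encodes atrial natriuretic peptide, had unequal differences in the 2 groups. It was 10.29 and 8.79 on the high NC arrays NC-1 and NC-3, and 8.70 and 8.34 on the low NC arrays NC-2 and NC-4. In DM it was 9.999, 10.51 and 8.93 on DM-1, DM-2 and DM-4 and 5.12, below background, on DM-3. The high side was thus above the low side by 1.03 within NC and by 4.70 within DM, and the large DM value rests on DM-3. The difference between the groups was 3.67 ± 0.77, with the smallest unadjusted p among the atrial genes (0.000644) and a limma adjusted p of 0.9999, so it was not called. DM-3 is the only low DM array, so that arm has no spread of its own and the SE comes from the other arrays. Nppa on the AngIV arrays was 7.33, 8.98, 8.77 and 9.65, although Myl7 was below 5 on all 4. An Nppa signal above 7 thus occurred on arrays with low Myl4 and Sln, as on NC-2 and NC-4.

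Promoters were looked up for the 5 atrial genes with the largest differences, to let their sequences be compared. RefSeq entries of the GRCm38.p6 build were found for 3 of them, Myl4, Nppa and Mybphl, and Sln and Dkk3 are named only. Each sequence is the 250 bases before the gene's annotated start, on the plus strand: chr11:104550413-104550662 for Myl4, chr4:148000472-148000721 for Nppa and chr3:108364661-108364910 for Mybphl. Motifs of cardiac factors were searched on both strands: AGATAA for GATA factors, AGGTGT for T-box factors, and the MEF2 site and the CArG box by their usual consensus. Matches are in capitals.

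Myl4: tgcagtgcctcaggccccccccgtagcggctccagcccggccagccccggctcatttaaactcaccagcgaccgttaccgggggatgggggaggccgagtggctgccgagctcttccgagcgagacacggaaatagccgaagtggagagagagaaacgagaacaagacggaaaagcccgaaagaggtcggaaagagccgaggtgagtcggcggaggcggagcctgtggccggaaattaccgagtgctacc
Nppa: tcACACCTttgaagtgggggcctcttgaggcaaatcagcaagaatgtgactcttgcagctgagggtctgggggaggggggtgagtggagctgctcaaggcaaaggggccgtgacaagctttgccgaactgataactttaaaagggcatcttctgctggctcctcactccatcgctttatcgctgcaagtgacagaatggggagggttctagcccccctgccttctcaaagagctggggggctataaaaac
Mybphl: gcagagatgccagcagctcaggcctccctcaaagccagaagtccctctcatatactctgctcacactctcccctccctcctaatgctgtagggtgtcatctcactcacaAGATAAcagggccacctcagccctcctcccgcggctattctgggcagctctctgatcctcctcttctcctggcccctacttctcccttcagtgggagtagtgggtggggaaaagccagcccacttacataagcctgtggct

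Nppa held 1 T-box match, at positions -248 to -243 relative to the start, and 0 of the other motifs as searched. The GATA search took only the exact letters AGATAA. The Nppa window also holds tgataa, which differs by 1 letter and was not counted, so the 0 does not mean that GATA sites are absent. Mybphl held 1 GATA match, at positions -141 to -136, and Myl4 held 0 matches of any of the 4. Over 32851 windows of the same length in the RefSeq table, 11.8% held the T-box letters, 9.99% the GATA letters, 2.92% the MEF2 site and 1.47% the CArG box. These matches describe letters in the windows only.

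**Figure D1:**
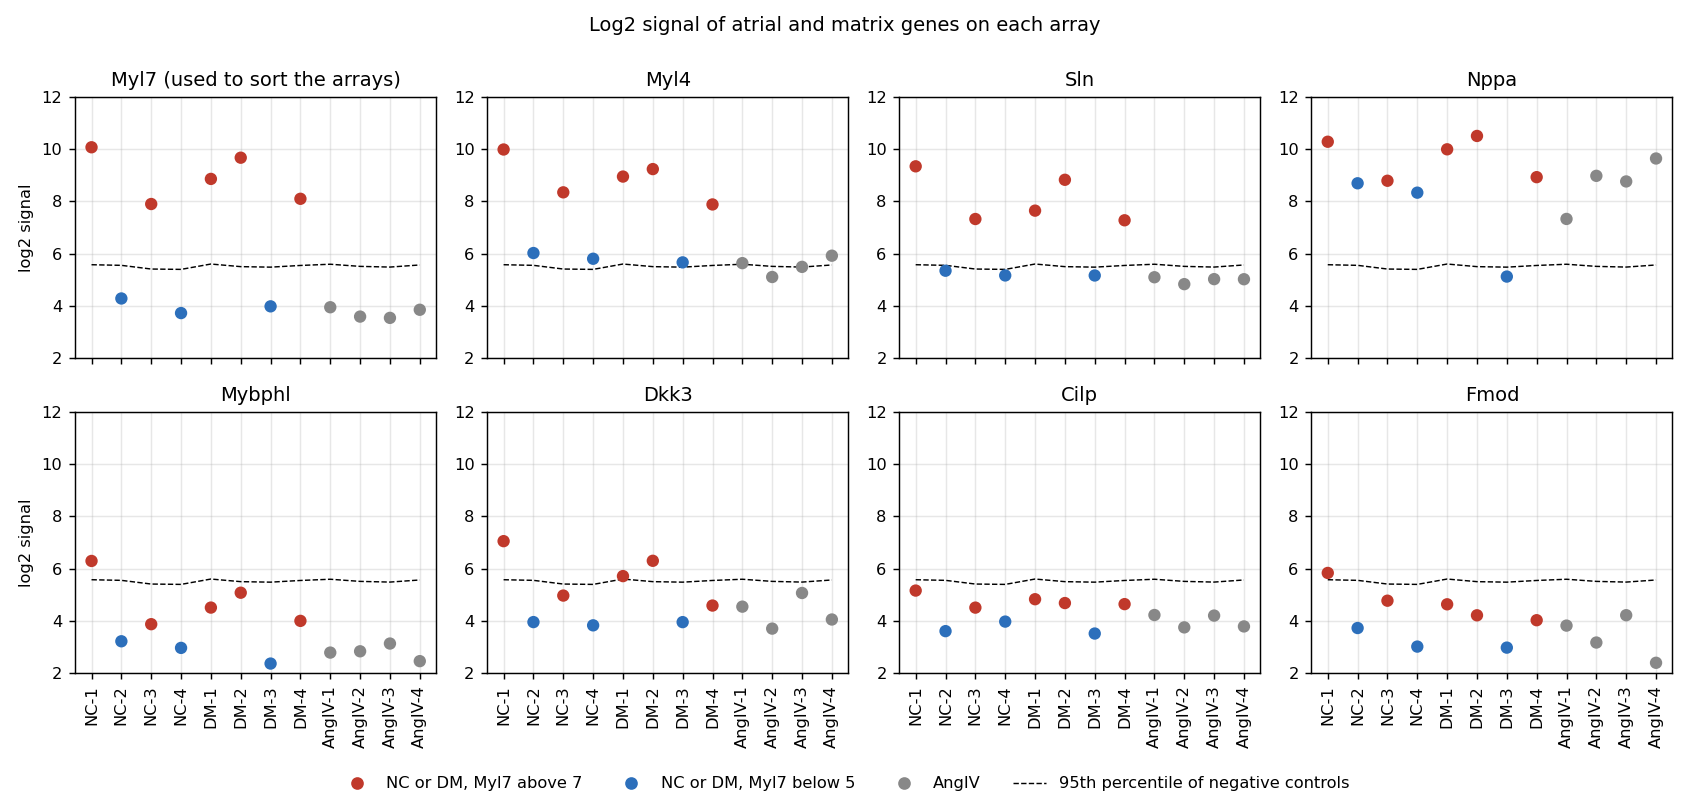
Log2 signal on each of the 12 arrays for Myl7, which sorted the arrays, and for 7 other genes. Red points are NC and DM arrays with Myl7 above 7, blue points those below 5 and grey points AngIV arrays; the dashed line is the 95th percentile of the negative controls on each array. Myl4 and Sln separate red from blue with a gap, Nppa falls to 5.12 on DM-3, and most Mybphl, Cilp and Fmod points lie under the dashed line.

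The other atrial genes had small differences. The remaining members with an unadjusted p under 0.05 were Stard10, a lipid transfer protein, at 0.56 ± 0.13, and Fgf12, a modulator of sodium channels, at 0.74 ± 0.26, or 0.43 without NC-1, below background on both sides. Kcnj3, a subunit of the acetylcholine-gated potassium channel of the atria, had a difference of -0.19 ± 0.13, or -0.10 without NC-1, with values of 7.005 to 7.53 on the 8 arrays, and its partner Kcnj5 had -0.05 ± 0.14. The muscarinic receptor gene Chrm2 had -0.11 ± 0.14 and the developmental factor Tbx5 0.08 ± 0.13. The atrial transcription factors Nr2f1 and Nr2f2 had -0.07 ± 0.17 and 0.06 ± 0.18, and Nr2f1 was below background on all 8 arrays. Kcna5, a potassium channel of atrial repolarization, had 0.23 ± 0.14, and Pam, which amidates peptides in atrial granules, 0.26 ± 0.14. Bmp10, a ligand made in the atria, was 2.28 to 3.18 on all 12 arrays, below background throughout. Without NC-1, 6 of the 19 atrial genes reached that threshold with a positive difference, and without NC-3 7 did.

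No ventricular gene was called in either direction. Of 16 tested ventricular genes, 0 were called and 0 had an unadjusted p under 0.05 in either direction; 2 had a positive difference and the median was -0.11. The potassium channel subunit Kcnip2 and Pln, which encodes phospholamban, were lower with no overlap within NC and within DM, 2 of 16 beside 3.9% of all tested genes. Their differences were -0.16 and -0.08. Without NC-3, 1 ventricular gene reached an unadjusted p under 0.05, the potassium channel Kcnd2, at -0.57 beside -0.36 with all 8 arrays. Myl2, the ventricular regulatory light chain, was 11.74 to 11.87 on the high arrays and 11.71 to 11.90 on the low arrays, so the sides overlapped, and the 95% confidence interval of its difference was -0.28 to 0.21. Myl3, the ventricular essential light chain, had a difference of -0.06 ± 0.11 and Irx4, a ventricular transcription factor, -0.22 ± 0.15. The 2 positive members were Myh7, the slow myosin heavy chain, at 0.39 ± 0.30, and Irx5, another factor of the family, at 0.02 ± 0.13. The shared sarcomere genes had a median difference of -0.04 over 15 genes and the calcium handling and ion channel genes -0.04 over 18. Of the 16 tested genes of glycolysis and glucose uptake, 0 had a positive difference and 0 an unadjusted p under 0.05, with a median of -0.10. Without NC-1, 5 of the 16 were positive. Fatty acid oxidation genes had a median of 0.01 over 19 genes.

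Several genes of the extracellular matrix and valves had positive differences, none of them called. Cilp, an intermediate-layer protein of cartilage, was 5.15, 4.50, 4.82, 4.68 and 4.63 on NC-1, NC-3, DM-1, DM-2 and DM-4 and 3.60, 3.96 and 3.51 on NC-2, NC-4 and DM-3. All of these values lie below background, the sides did not overlap, and the difference was 1.11 ± 0.16 with a limma adjusted p of 0.121. Fmod, which encodes the collagen-binding proteoglycan fibromodulin, had a difference of 1.67 ± 0.27 and was highest on NC-1 at 5.83. Comp and Chad, 2 further cartilage matrix genes, had differences of 1.30 ± 0.31 and 1.24 ± 0.44, and both were highest on NC-1. Fmod and Chad passed the filter only through the high side, and each was above background on 1 array. Without NC-1 Comp and Chad were 0.84 and 0.67. Of the 11 tested valve and cartilage genes, 0 were called, 4 reached an unadjusted p under 0.05 with a positive difference, 10 were below background on both sides and the median was 0.06.

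Of the 23 tested fibroblast and matrix genes, 0 were called and 4 reached an unadjusted p under 0.05, all positive. The direction was positive in 20 of 23 with a median of 0.18, where 47.6% of all tested genes were positive. The mean level of the list was 6.28 on DM-4, a high array, below the 3 low arrays at 6.29 to 6.39, so the sides overlapped. Mfap4, a microfibril-associated protein, had 0.86 ± 0.20, Postn, a matricellular protein of valves and scars, 0.80 ± 0.25, Lum, a small proteoglycan, 0.59 ± 0.21 and Fn1, which encodes fibronectin, 0.55 ± 0.20. Without NC-1 the count of 4 became 2 and Postn had 0.49, and without NC-3 the count became 6. The mean level of the smooth muscle list was 7.19 on NC-1 and 6.00 to 6.31 on the other high arrays, beside 6.03 to 6.43 on the low arrays, so the 2 sides overlapped on this list. Of its 14 genes, 0 reached an unadjusted p under 0.05 in either direction. Without NC-3, 3 did so with a positive difference. Without NC-1, 0 were positive at that threshold and 1 was negative, Acta2, at -0.52.

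By the rule for naming genes, the 15 genes with the smallest limma p, no overlap within NC and within DM and a bright side above background were Myl4, Sln, Prg4, Timp4, Rbm5, Ccdc80, Stard10, Dkk3, Nppa, Aldh1a1, Prelp, Rnf145, Ddit4, Mgp and Postn, of which only Myl4 was called. Prg4, which encodes the lubricating protein lubricin, was 7.18, 6.53, 6.95, 6.76 and 6.17 on the high arrays and 5.88, 5.42 and 5.44 on the low arrays, and its difference was 1.20 ± 0.21. Timp4, an inhibitor of matrix metalloproteinases that is prominent in heart, had 1.03 ± 0.20. Aldh1a1, which oxidizes retinaldehyde, had 0.84 ± 0.23, Ddit4, a stress-induced inhibitor of mTORC1 signalling, 0.90 ± 0.27 and Mgp, an inhibitor of calcification, 0.71 ± 0.22. Without NC-1 the Mgp difference was 0.45. The 15 genes lower on the high arrays by the same rule were led by Egln3, an oxygen-sensing prolyl hydroxylase, at -0.60 ± 0.17, C2cd2l at -0.46 ± 0.13 and the clock repressor Nr1d1 at -0.64 ± 0.19, and 0 of these 15 was called. Over all tested genes, 3.9% were likewise lower with no overlap within NC and within DM. Egln3 was 7.77, 7.91, 7.32, 7.35 and 8.01 on the high arrays and 8.24, 8.36 and 8.34 on the low arrays.

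**Figure D2:**
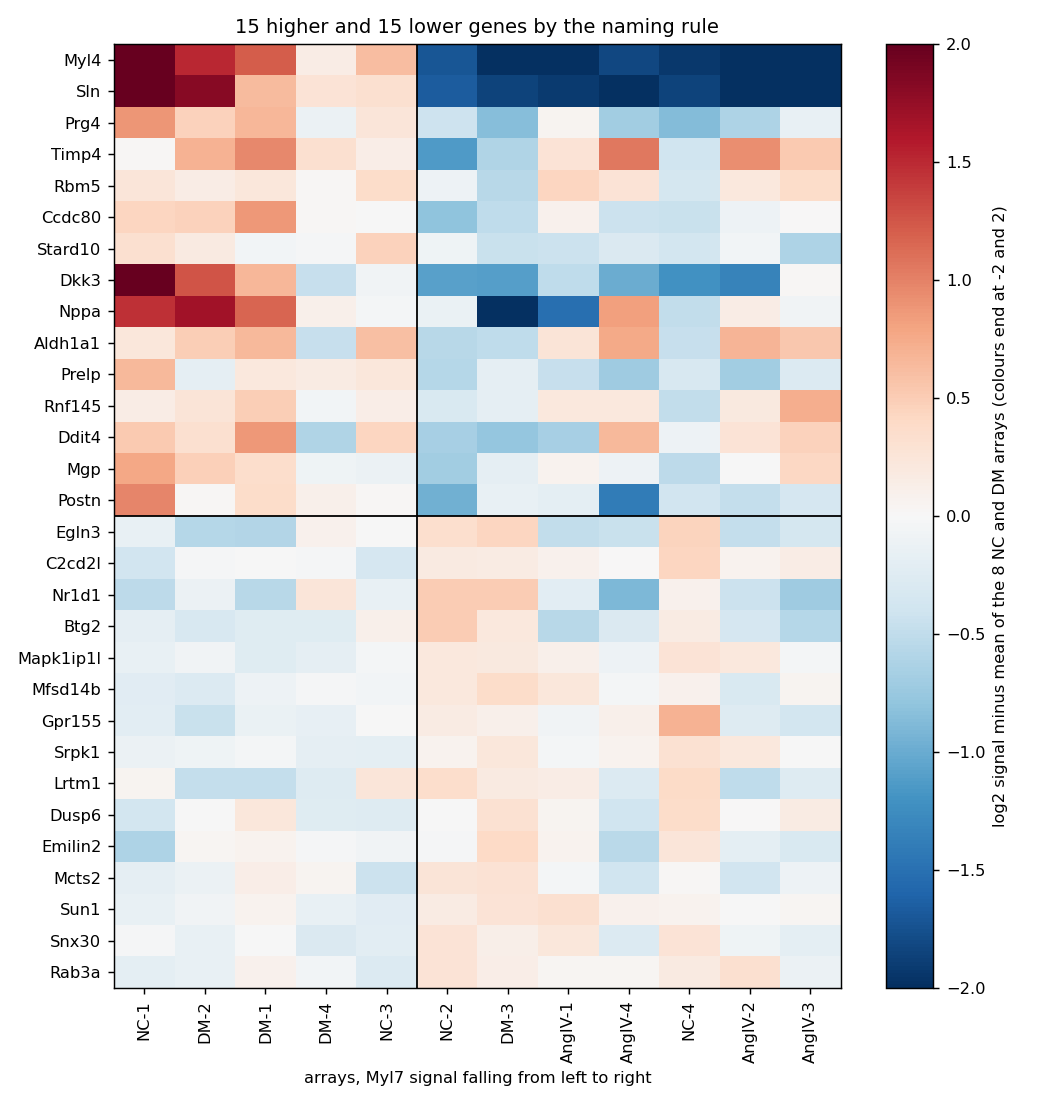
Log2 signal of the 15 higher and 15 lower named genes on the 12 arrays, as the difference from each gene's mean over the 8 NC and DM arrays; arrays run from the highest Myl7 on the left to the lowest on the right, with a line after the 5 high arrays. Myl4 and Sln change at that line. The fitted high-minus-low differences of the 15 lower genes, which are not drawn here, go no further than -0.64.

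**Figure D3:**
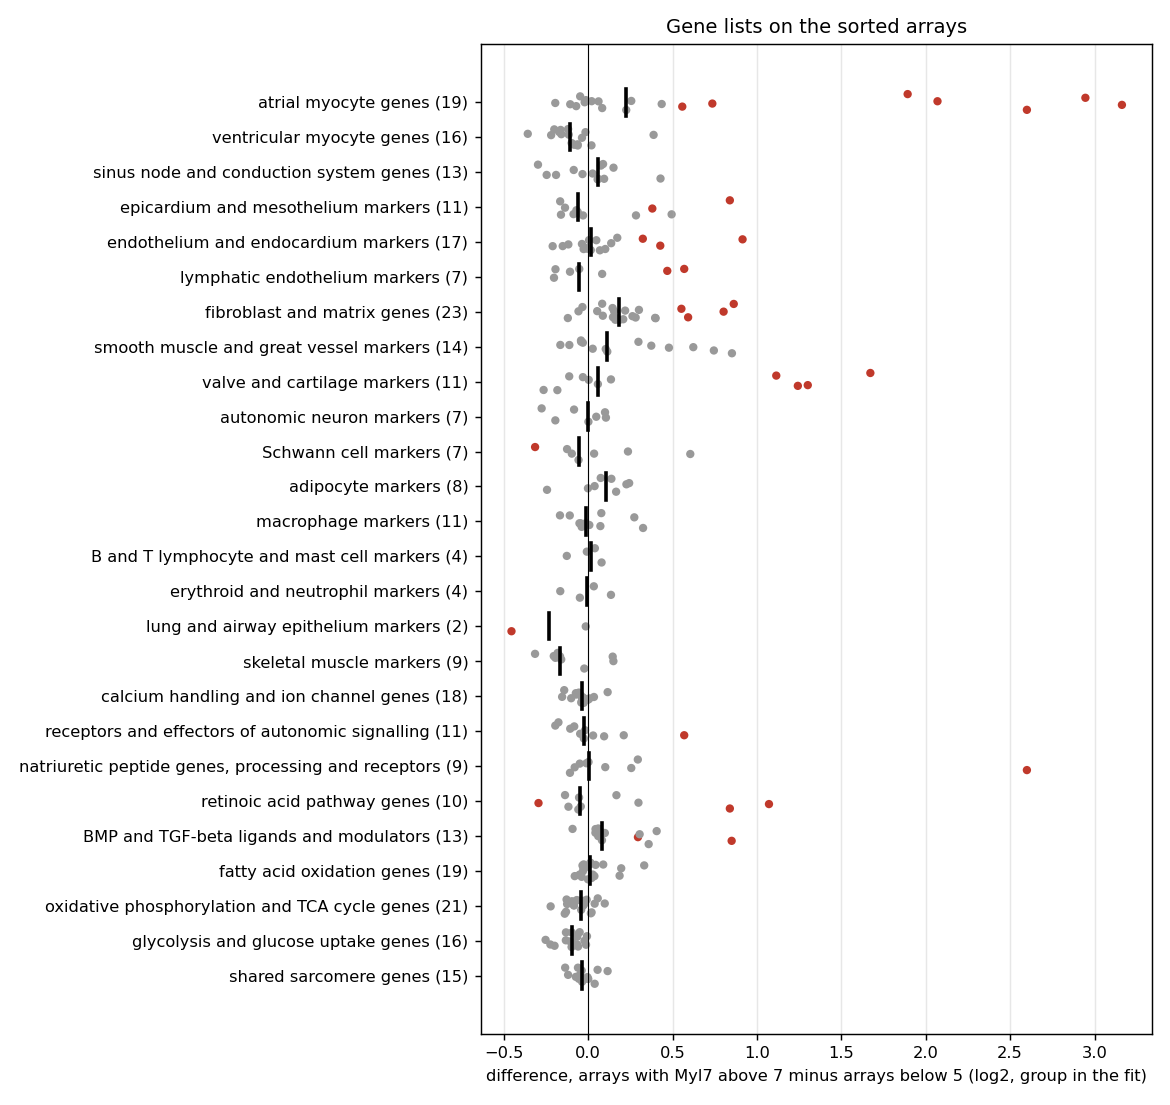
Difference between the high-Myl7 and low-Myl7 arrays for every tested member of 26 gene lists, with the group in the fit; red points have an unadjusted p under 0.05, black bars are list medians and the number of tested members stands in brackets. The atrial list reaches 3.16, while the ventricular, sarcomere, calcium and metabolic lists stay near 0.

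Markers of other cells that the dissection could hold were described the same way. Endothelial and endocardial markers had 3 of 17 members that reached an unadjusted p under 0.05 with a positive difference, and a median of 0.02, and without NC-1 or without NC-3 only 1 did so. Cytl1, a secreted protein, had the largest difference, 0.91 ± 0.31. Lymphatic endothelial markers had 2 of 7 at that threshold, the hyaluronan receptor Lyve1 at 0.57 and Mmrn1 at 0.47, with a list median of -0.05. Without NC-1 or without NC-3, 1 of the 7 did so, and Mmrn1 was below background on all 8 arrays and passed the filter only through the high side. Aldh1a1 and Krt18 were the 2 of 11 epicardial and mesothelial members at that threshold, and 8 of the 11 were below background on both sides. The node and conduction list, with Tbx3 at -0.19 ± 0.13 and Isl1 at 0.15 ± 0.19, had 0 of 13, and 10 of the 13 were below background on both sides. Isl1 was -0.08 without NC-1 and 0.32 without NC-3. Macrophage, adipocyte, neuron, lymphocyte and blood lists had 0 members at that threshold in either direction, and the Schwann cell list had 1 lower, Sox10, which was below background on both sides. Members below background on both sides were 4 of 11, 5 of 8, 6 of 7, 4 of 4, 2 of 4 and 6 of 7 in these lists, in that order. Such members cannot show whether these cells differed. Of the 10 retinoic acid genes, Aldh1a1 and Rbp4 reached it with a positive difference and Rara with a negative one. Rbp4, the retinol carrier made in liver, was 7.88 on NC-3 and at most 6.67 elsewhere, and its difference of 1.07 became 0.39 ± 0.26 without NC-3, the array with the highest liver genes. Of the natriuretic peptide genes, only Nppa passed it, while Corin, which activates the peptide, had -0.05 ± 0.21, or 0.08 without NC-1.

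**Figure D4:**
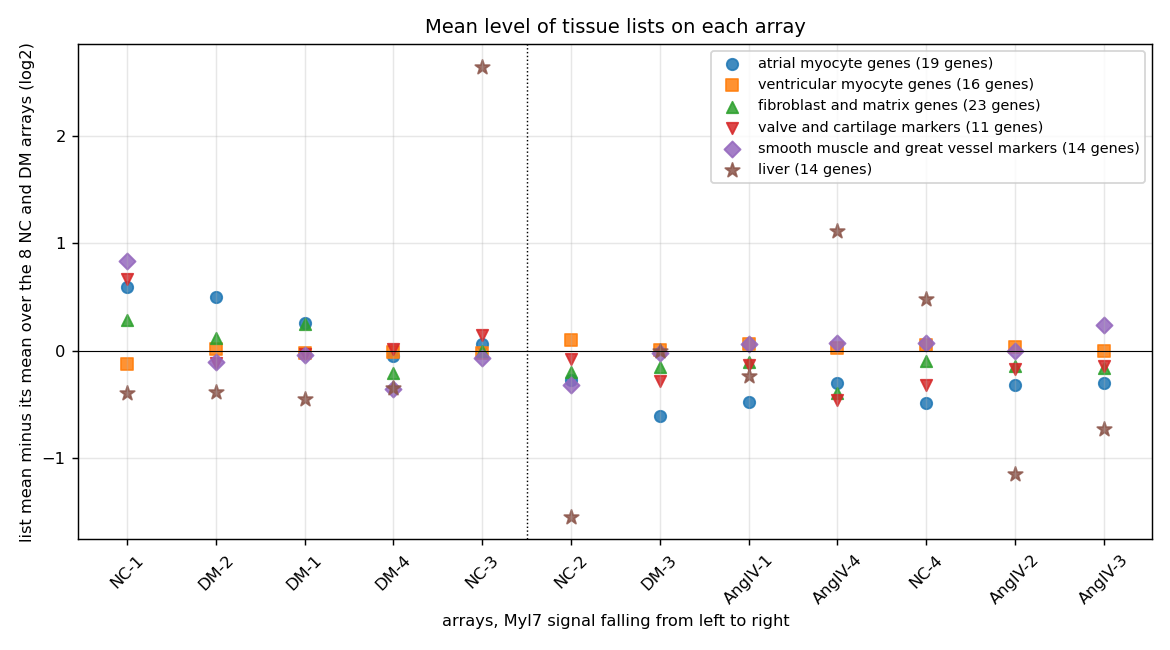
Mean log2 level of 6 gene lists on each array, relative to the list's mean over the 8 NC and DM arrays; arrays run from the highest Myl7 on the left to the lowest on the right. The atrial list is above the ventricular list on NC-1, DM-2, DM-1 and NC-3 and slightly below it on DM-4 (-0.05 beside -0.01), the smooth muscle and valve lists are high on NC-1, and the liver list is high on NC-3.

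The level of Myl4 and Sln also varied among the high arrays. In 1 of 21 other settings of the comparison, picked out here with its result known, the mean of Myl4 and Sln on each array replaced the 2 sides in the fit. Then 7 of 13650 other genes had a slope called at a limma adjusted p under 0.05 (0.0513%), all positive: Mybphl, Dkk3, Prg4, Fmod, Chrdl1, Cilp and Angptl7. Over the 21 settings the count of genes called higher ran from 0 to 7, beside 1 in the comparison of sides. Array weights with the 2 sides also gave 7, of which Prg4, Cilp, Fmod and Chrdl1 are in both sets. Within these sets, Mybphl, Fmod and Chrdl1 passed the filter only through the high side. A positive value was thus partly built in for them, and their calls are a description only. Myl4 and Sln were taken with their pattern known, so these p-values too only rank genes. Mybphl rose by 0.74 and Dkk3 by 0.70 for each unit of that mean, both on the log2 scale. Chrdl1, an antagonist of bone morphogenetic proteins, had a slope of 0.28 and stayed below background on every array. Angptl7, a secreted protein, was named after its values were seen. NC-1 was the highest array for Mybphl, Dkk3 and Fmod.

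The AngIV arrays were all low in Myl7, at 3.94, 3.58, 3.53 and 3.84, and in Sln, at 5.09, 4.83, 5.02 and 5.01. Myl4 was 5.63, 5.10, 5.49 and 5.92 on them. Of the 15 higher genes, all 4 AngIV arrays lay below the lowest high array for 5 genes, Myl4, Sln, Stard10, Prelp and Postn. Over all tested genes, which were not chosen in this way, the share was 1.30%. The 15 genes were named because their high arrays lay above their low arrays within NC and within DM. That choice favours genes whose lowest high array is itself high, so the 5 of 15 cannot be judged against the 1.30%. For Timp4, Rbm5, Aldh1a1, Rnf145 and Mgp, 0 AngIV arrays lay below the lowest high array. Timp4 was 6.57, 7.23, 6.83 and 7.35 on the AngIV arrays, beside 6.33 to 7.26 on the high arrays and 5.17 to 5.90 on the low arrays. AngIV treatment and a low Myl7 level cannot be told apart in these arrays.

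The genes with the largest differences in NC were compared with DM. The 50 genes with the largest high-minus-low difference in NC, 2 arrays against 2, had a median of 1.67 in NC and -0.28 in DM, where 17 of 50 (34%) were positive beside 48.9% of all tested genes. Liver genes were among them, such as Alb with 2.82 in NC and -0.95 in DM. Myl4 had 3.26 in NC and 3.03 in DM, Sln 3.09 and 2.76, Mybphl 1.996 and 2.17, Dkk3 2.12 and 1.58, and Fmod 1.94 and 1.32. These values come from 2 sets of arrays that do not share samples, and the DM value rests on DM-3 as its only low array. These genes were picked with the result over all 8 arrays known, so their DM values are no separate result. Mybphl and Fmod also passed the filter only through the high side, so a positive value was partly built in for them. A test of the difference between the groups called 0 genes, and 299 (2.19%) had an unadjusted p under 0.05.

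The high-Myl7 arrays are spread unevenly over the groups, with 2 of 4 in NC and 3 of 4 in DM. Adding the side to the comparison of DM with NC changed the DM-minus-NC value most for Myl4, from 0.39 to -0.40, a shift of 0.79 on the log2 scale. With this spread of arrays, every gene shifts by the same fixed share of its side difference. The order of the shifts therefore only repeats the order of the side differences and is no separate result. Nppa moved from -0.39 to -1.04, Sln from 0.43 to -0.30 and Mybphl from -0.10 to -0.62. Without the side, DM against NC called 1 gene higher (0.00732%) and 4 lower (0.0293%). With it, 1 was higher (0.00732%) and 3 lower (0.022%), and 4 genes were called in both fits: Arntl, the core clock activator, Abat, an enzyme of GABA breakdown, Epha4, an ephrin receptor, and Cyp1a1, a target of the aryl hydrocarbon receptor. Cyp1a1 was 3.19, 2.81, 2.42 and 2.10 on NC-1 to NC-4 and 5.93, 4.70, 5.30 and 4.78 on DM-1 to DM-4. Only DM-1 was above background, and the gene passed the filter on low values only through the DM arrays, with all 4 NC values under its limit of 3.40. Its difference was 2.51 with the side and 2.54 without, and with all 12 arrays in the fit with the side it was not called. Myl1 had a limma adjusted p of 0.0402 without the side and 0.051 with it. With the side in the fit, leaving out NC-3 or DM-3 left 0 genes called, and leaving out DM-4 gave 10.

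**Figure D5:**
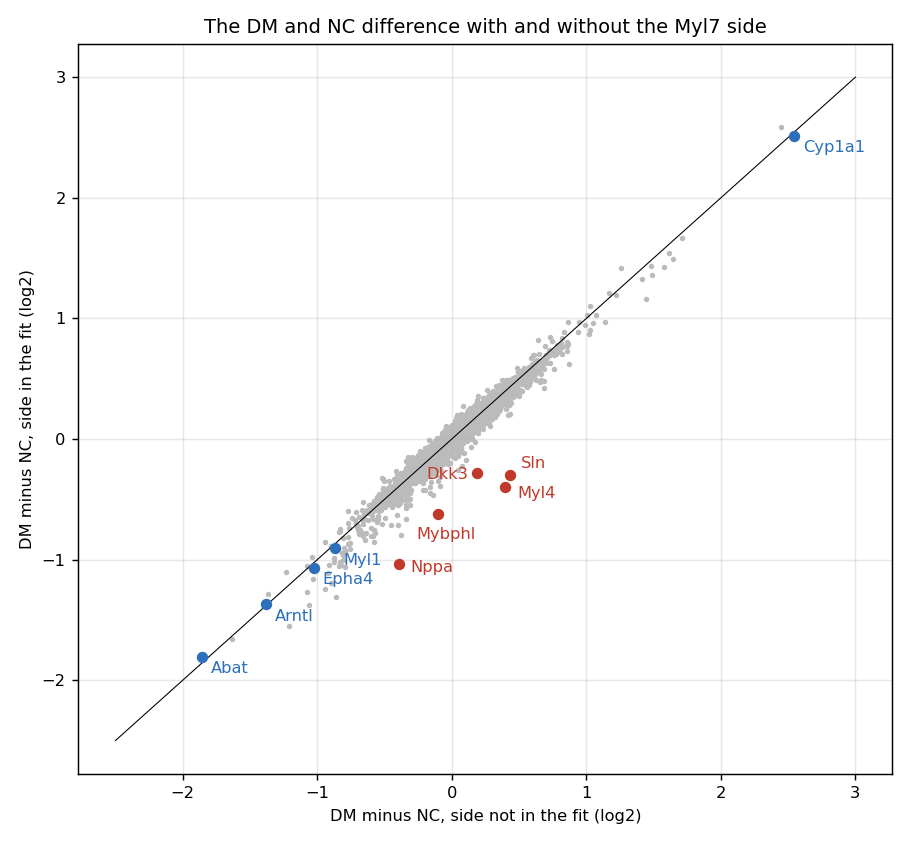
DM minus NC on the log2 scale for each tested gene, without the side in the fit (horizontal) and with it (vertical); the line marks equal values. The 5 atrial genes drawn in red lie below the line, with Myl4 moving from 0.39 to -0.40, while Arntl, Abat, Epha4, Cyp1a1 and Myl1 in blue lie close to it. A gene's distance from the line is fixed by its side difference.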

How the data were processed

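Total RNA from 12 samples of myocardium was hybridised to microarrays, and the deposited log2 values were normalized by RMA, per the submitters' processing notes. The arrays hold 29129 probe sets, 6923 of them controls. Of 22206 transcript probe sets, 19572 name 1 gene, 2634 none and 0 several, giving 19505 genes (the brighter probe set was kept for 55). The dimmest 30% were left out (mean log2 under 3.40), Myl7 was dropped, and 13652 genes were left. The 8 NC and DM arrays were fitted in limma 3.58.1 (R 4.3.3) with group and side in the fit and Benjamini-Hochberg adjustment, the threshold being 0.05. The number of arrays limits the precision, with a median standard error of 0.14. The disease label of some samples contradicts their titles and was not used. Genes were named by the smallest p, 15 each way, with up to 6 per list beyond the atrial and ventricular lists. The members and lists were chosen with earlier results of these data known. Of 379 listed genes 305 were tested. The fit was tested on simulated data. For the count of genes higher on the high side, 21 other settings were run, 19 planned (filter, normalization, prior, weights, replicate block, left-out arrays, all 12 arrays, side alone, the mean of Myl4 and Sln) and 2 added after seeing the data (the liver list as a covariate, a filter at the negative controls); the closing section gives their effect. The labels give no batch, and further processing by the authors is not given in the sources used here.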

Additional observations from a re-analysis of the deposited data

Results flagged for a closer look

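Each of the 64 tested genes named in the report, Myl7 apart, was screened for an array far from the rest of its group, among the 4 arrays of each of NC, DM and AngIV and among the 5 high-Myl7 arrays, which makes 256 groups that share arrays. In 16 of them the gap between the farthest array and its neighbour took a larger part of the group's range than Dixon's 95% limit. Chance alone flags about 1 in 20 groups. NC-1 stood apart among the high arrays for 3 genes: the smooth muscle genes Cnn1, at 6.67 with the next array at 4.24, and Acta2, at 9.99 with the next at 8.15, and the cartilage gene Comp, at 6.70 with the next at 5.21. NC-3 stood apart for 2 genes made in liver, Alb at 11.02 with the next array at 7.67, and Rbp4 at 7.88 with the next at 5.63. Acta2 on NC-1 also stood apart among the 4 NC arrays, at 9.99 with the next at 8.29. Among the DM arrays, DM-3, the 1 with low Myl7, stood apart for Cilp, at 3.51 with the next at 4.63, and for C2cd2l, at 5.53 with the next at 5.35. Both genes were named by their side difference, and DM-3 is the only low DM array, so its place apart is no separate result. DM-1 stood apart for Fn1, at 6.43 with the next at 5.59, for Cytl1, at 6.88 with the next at 5.77, and for Myl2, at 11.74 with the next at 11.86. Chad was 4.05 on DM-4, below background, with the next array at 2.95. Among the AngIV arrays, Rnf145 was 6.31 on AngIV-3 with the next array at 5.81, and Cytl1 was 5.18 on AngIV-4 with the next at 6.07. Irx5 was 4.10 on AngIV-2, below background like the other arrays, with the next at 4.55. Myl2 was 11.85 on AngIV-2 with the next array at 11.82, a narrow gap in a narrow range.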

How the results depend on the processing

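Over 19 other settings, 833 differences of named genes were recomputed, and 810 stayed on their side of the threshold within 1 residual SD, 5 moved by more, 8 were no longer called and 10 became called. The sign changed in 22 of the 833, in 7 atrial genes that were not called and whose difference was at most 0.08 in size (Angpt1, Gja5, Kcnj5, Nr2f1, Nr2f2, Sbk2 and Tbx5). Named genes of the other lists lie outside this count, and some of them changed sign too. Without NC-1, Isl1 went from 0.15 to -0.08, Corin from -0.05 to 0.08 and Irx5 from 0.02 to -0.02. The count of genes called higher on the high-Myl7 arrays was 1 and became 0 with quantile normalization anew or a trend with a robust prior, 2 with all 12 arrays, with a trend in the prior or with the replicate block, 7 with array weights or with the mean of Myl4 and Sln as a number, and 4 with the liver list as a covariate, a setting added after seeing the data. Leaving out 1 array at a time gave 0 to 4. A filter at the negative controls, also added, left it at 1, with 3 and 4 genes called for DM against NC with and without the side. The count lower was 0, became 1 (Kap) with the liver list as a covariate, and stayed at 0 when any array was left out. The cause of these changes was not tested. Without NC-4 the 1 gene called was Pde3b, named after its values were seen, and Myl4 had a limma adjusted p of 0.108. DM against NC with the side called 4 genes, 8 with a trend, with a trend and robust prior or with array weights, 9 with the replicate block, and 0 to 10 when an array was left out. Without the side it called 5, then 3 with all 12 arrays, 12 with a trend, 18 with a trend and robust prior, 8 with the replicate block, and 4 to 7 when an array was left out. The deviations of same-numbered NC and DM arrays had correlations of 0.10, -0.09, 0.06 and -0.03. Only replicate 1, at 0.1009, was above the limit of 0.1 set for pairing, and the main fit used no pairing. Depth does not apply to arrays, and signals under the negative controls limit Mybphl, Dkk3, Cilp and Fmod, among others.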
